A study of Oryza sativa with 4 samples.

Results

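The jasmonate group examined here holds 10 rice genes: the synthesis genes OsAOS2, OsAOC and OsOPR7, the repressor gene EG2/OsJAZ1, and 6 further OsJAZ genes. They were listed by locus ID as genes of the pathway, with earlier results of these data known. Each had a row of its own among the 57143 rows of the deposited table. The assay was RNA-seq of poly(A)-enriched RNA from young panicle, the developing inflorescence, of soil-grown japonica rice. The group used is the control line Nip, with 2 libraries, and the labels do not give the plants' age. These libraries were matched to Nip by reading their abbreviated names as control, and 1 further name of that kind was not used. The study also covers osrdr2-3, a line with a mutation in the RNA-dependent RNA polymerase gene OsRDR2. The 3 library names read as this line outnumber its 2 samples in the labels and could not be tied to them. Those libraries were not analysed here. Every value below is therefore a level in Nip, with no comparison between genotypes and no test.

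Jasmonate is an oxygenated fatty acid hormone of defence and of flower development. In the plastid, lipoxygenase, allene oxide synthase and allene oxide cyclase turn linolenic acid into oxophytodienoic acid, which a reductase in the peroxisome takes on toward jasmonic acid. The isoleucine conjugate of jasmonic acid binds the F-box receptor COI1 together with a JAZ protein, the JAZ protein is degraded, and the transcription factors it held back are released. JAZ genes are themselves commonly induced by jasmonate. In rice spikelets, a stabilised form of EG2/OsJAZ1 alters floral organs, and EG2/OsJAZ1 acts through the E-function gene OsMADS1.

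The values are FPKM, fragments scaled to transcript length and to the total of the library. Levels are set side by side between genes on this scale, but the length used for each row is not given. The 2 libraries summed to 728768 and 721178 FPKM, and 22500 and 22346 rows reached 1 FPKM. The number of fragments behind them is unknown, since the table gives no counts. OsRDR2 itself was at 13.8 and 12.8 FPKM in these control libraries. The panicle label was checked on 5 floral genes, of which all 5 exceeded 10 FPKM in both libraries. Of rows with a single chromosomal locus ID, 20.2% reached that level, so the check is a weak one. The floral genes ran from 16.7 FPKM for DL to 1686 FPKM for OsMADS1. The OsMADS1 row spans 66013 bp and overlaps 7 other rows, and other loci may add to it. The chlorophyll-binding genes CAB1R and CAB2R, markers of green tissue, were also at 79.9 to 357 FPKM, and their part in the jasmonate values was not tested. In a whole panicle, a low value from few expressing cells and one from little RNA per cell cannot be told apart.

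In Nip panicle, 3 JAZ repressor genes and the reductase gene OsOPR7 stood well above the other members, and OsAOS2 and 2 tandem JAZ genes stood at or near the bottom. Of the 10 members, 8 reached 1 FPKM in both libraries, against 37.0% of the 53983 rows with a single chromosomal locus ID. At 10 FPKM the count was 7 of 10, against 20.2% of those rows. The median of the members' mean levels was 18.9 FPKM, and that of the rows was 0.0514 FPKM. The members had been picked as known genes of a pathway, with earlier results of these data known. Of the rows they are set against, 24329 were listed at 0 in both libraries.

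**Figure D1:**
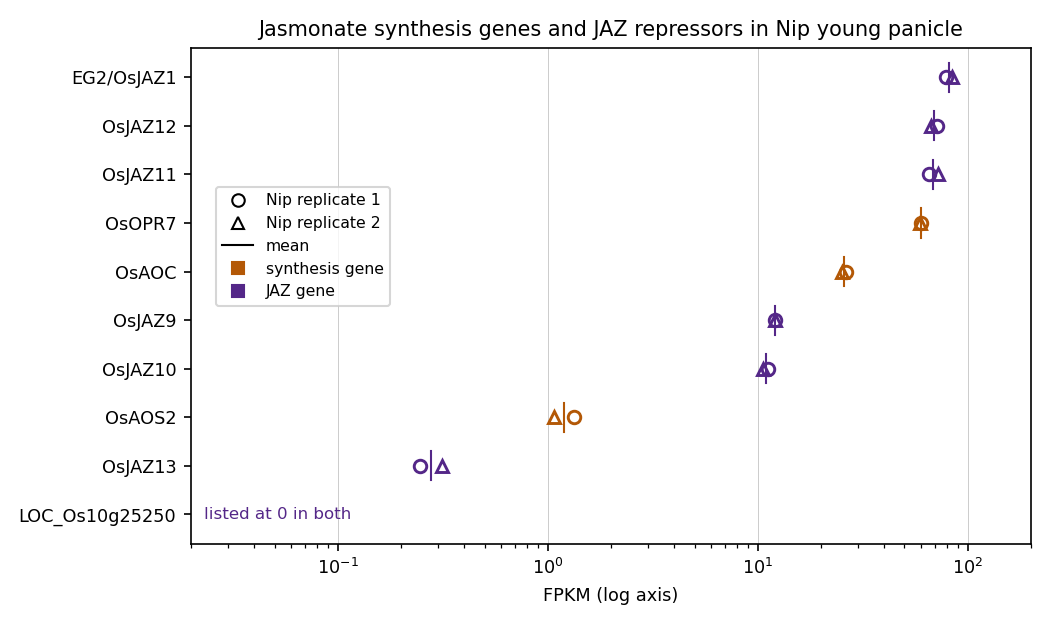
FPKM of each of the 10 genes (log axis) in Nip replicate 1 (circles) and replicate 2 (triangles), with the mean as a bar, synthesis genes in brown and JAZ genes in purple. The levels run from 84.4 FPKM for EG2/OsJAZ1 in replicate 2 down to OsJAZ13 at 0.245 FPKM in replicate 1, and LOC_Os10g25250 is listed at 0 in both libraries.

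The 3 synthesis genes of the group stood at well separated levels. OsAOS2 (LOC_Os03g12500, chromosome 3, 6608577 to 6610598), an allene oxide synthase, gave 1.33 and 1.07 FPKM in replicates 1 and 2, averaging 1.20 ± 0.187 FPKM (SD, n = 2, as for every ± below). It was the lowest synthesis gene in both libraries, and its mean lay above 63.2% of rows with a single ID. OsAOC (LOC_Os03g32314, chromosome 3, 18485606 to 18488404), the allene oxide cyclase whose loss gives the rice mutants cpm2 and hebiba, was at 26.3 and 25.2 FPKM, a mean of 25.8 ± 0.726. OsAOC exceeded OsAOS2 by 19.7-fold in replicate 1 and 23.7-fold in replicate 2. Its row spans 2799 bp, against 1429 bp for the RefSeq gene.

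OsOPR7 (LOC_Os08g35740, chromosome 8, 22547184 to 22550740), the peroxisomal reductase also known as OPEN GLUME1 from the flower-closing defect of its mutant, was at 59.9 and 59.4 FPKM. Its mean of 59.7 ± 0.363 FPKM was the highest of the 3 synthesis genes. It exceeded OsAOC by 2.28-fold and 2.35-fold in the respective libraries. The order OsOPR7, OsAOC, OsAOS2 held in both libraries with no overlap, and each step was larger than the summed SDs of the neighbouring genes. Such an SD measures the spread between 2 libraries, not the error of setting one gene against another. How much enzyme these transcript levels correspond to was not measured.

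The low level of OsAOS2 was not shared by its paralog. OsAOS1 (LOC_Os03g55800), the allene oxide synthase gene known as PRECOCIOUS, gave 21.7 and 20.9 FPKM in replicates 1 and 2. It exceeded OsAOS2 by 16.3-fold and 19.6-fold, and lay close to OsAOC, which exceeded it by 1.21-fold in either library. Upstream of both, the lipoxygenase gene OsLOX9 was at 9.71 and 10.4 FPKM and OsLOX8 at 4.57 and 4.33 FPKM, from neighbouring loci on chromosome 8. Downstream, OsJAR1, which joins jasmonic acid to isoleucine, was at 18.9 and 19.7 FPKM. Of the synthesis genes with a paired symbol outside the group, 2 of 4 (OsAOS1 and OsJAR1) were at 10 FPKM or more in both libraries, and OsLOX8 and OsLOX9 were at 1 FPKM or more. Among rows with a single chromosomal locus ID, 20.2% reached 10 FPKM and 37.0% reached 1 FPKM in both libraries. Reads shared between the paralogs may have been split, by a method not stated in these sources.

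All 3 receptor genes with a paired symbol were transcribed. OsCOI1b, which binds EG2/OsJAZ1 and acts in spikelet development, was at 88.9 and 90.0 FPKM. OsCOI1a was at 74.9 and 73.4 FPKM, on a row that overlaps another, and OsCOI2 at 28.8 and 29.9 FPKM. The OsCOI1a row spans 7166 bp, against 3701 bp for the RefSeq gene. OsCOI1b exceeded OsCOI2 by 3.09-fold and 3.02-fold. All 3 stood above OsAOC, and OsCOI1b also stood above EG2/OsJAZ1 in each library.

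**Figure D2:**
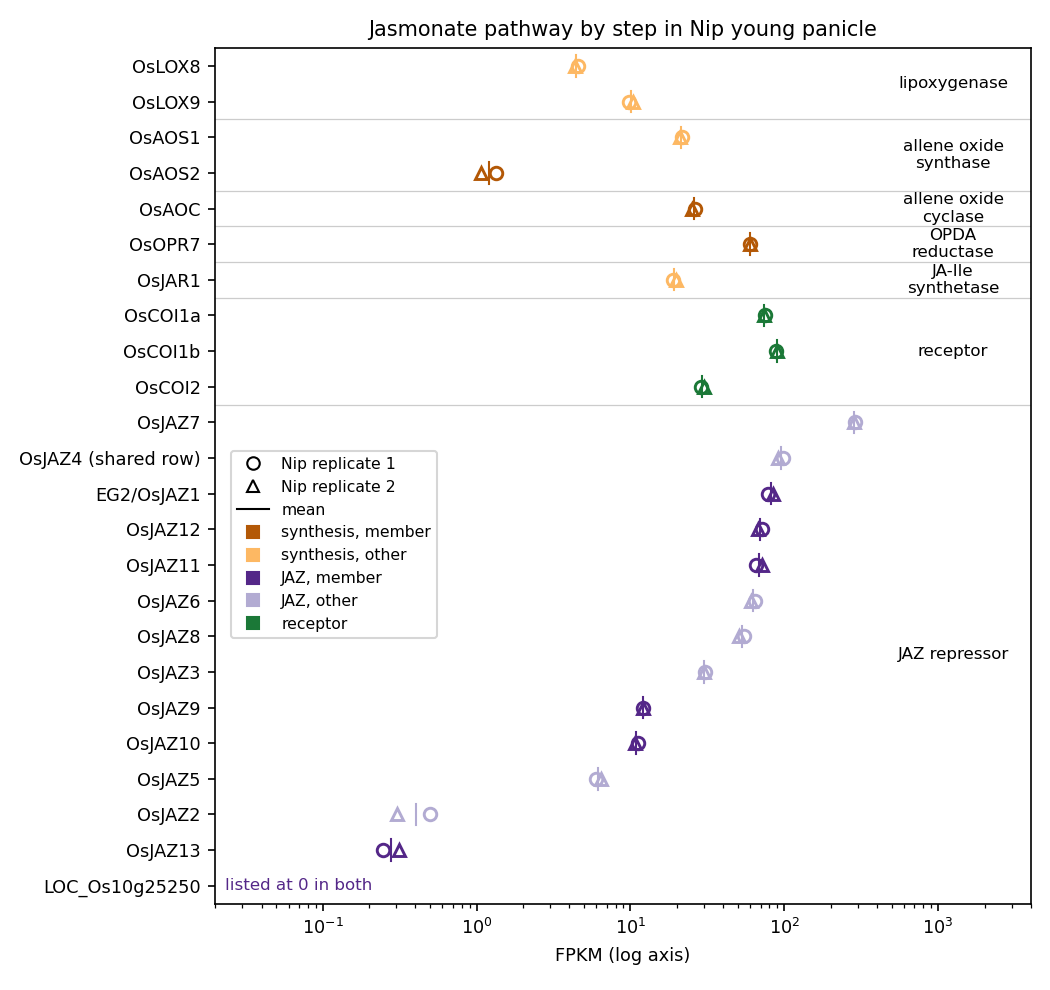
FPKM (log axis) of the jasmonate genes with a paired symbol and of LOC_Os10g25250, grouped by step, in Nip replicate 1 (circles) and replicate 2 (triangles) with the mean as a bar; darker brown and purple mark the 10 genes of the group, OPDA is oxophytodienoic acid and JA-Ile jasmonic acid joined to isoleucine. OsAOS2 at 1.33 and 1.07 FPKM stands below every other synthesis gene plotted, and the JAZ genes run from 286 FPKM for OsJAZ7 in replicate 1 to 0 for LOC_Os10g25250.

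EG2/OsJAZ1 was the most abundant of the 10 genes in both libraries. EG2/OsJAZ1 (LOC_Os04g55920, chromosome 4, 33306461 to 33310232) gave 78.8 and 84.4 FPKM in replicates 1 and 2, averaging 81.6 ± 3.96 FPKM. Its mean lay above 97.4% of rows with a single ID. The gap to the next member was 12.2 FPKM, more than the 7.19 FPKM that the SDs of both add up to. The libraries of the 2 genes did not overlap. Here too the SDs cover only the spread between the libraries.

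OsJAZ12 and OsJAZ11 followed and could not be ranked. OsJAZ12 (LOC_Os10g25290, chromosome 10, 13069729 to 13070894) was at 71.7 and 67.2 FPKM, a mean of 69.5 ± 3.22. OsJAZ11 (LOC_Os03g08320, chromosome 3, 4236724 to 4238274) was at 65.4 and 71.9 FPKM, a mean of 68.7 ± 4.60. OsJAZ12 was the higher in replicate 1 and OsJAZ11 in replicate 2, and their means differed by 0.766 FPKM, within the SD of either gene. OsOPR7 came next, 9.00 FPKM below OsJAZ11 in the mean, with no overlap between the libraries of the 2 genes. The other steps down the order of the 10 genes also showed no overlap.

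OsJAZ9 and OsJAZ10 stood at about the same lower level. OsJAZ9 (LOC_Os03g08310, chromosome 3, 4232001 to 4233042), which acts in salt and potassium responses of rice, was at 12.1 and 12.0 FPKM, a mean of 12.08 ± 0.0494. OsJAZ10 (LOC_Os03g08330, chromosome 3, 4248884 to 4249985) was at 11.2 and 10.6 FPKM, a mean of 10.9 ± 0.409. OsJAZ9 exceeded OsJAZ10 by 1.08-fold and 1.13-fold. The gap of 1.14 FPKM was larger than the summed SDs of 0.458 FPKM, but an SD from 2 libraries is itself uncertain.

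OsJAZ13 and LOC_Os10g25250 were the only members under 1 FPKM, and the authors' deposited table gave both the status NOTEST. OsJAZ13 (LOC_Os10g25230, chromosome 10, 13030986 to 13032006) was at 0.245 and 0.314 FPKM. Among 1202 rows whose span is within 5% of that of OsJAZ13, the lowest values above 0 were 0.0459 and 0.0489 FPKM in replicates 1 and 2. OsJAZ13 stood at 5.34 and 6.41 times these, so its values may rest on few fragments. LOC_Os10g25250 (chromosome 10, 13042901 to 13046977), listed among the OsJAZ genes but without a symbol in the RefSeq gene table, was listed at 0 in both libraries. At an unknown depth this does not show that the gene is silent.

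Within the 7 JAZ members, EG2/OsJAZ1, OsJAZ11 and OsJAZ12 together held 90.2% of the summed FPKM in replicate 1 and 90.7% in replicate 2. EG2/OsJAZ1 alone held 32.9% and 34.2%. OsJAZ9 and OsJAZ10 each held between 4.32% and 5.06%, and OsJAZ13 held 0.102% and 0.127%. The 7 summed to 239.6 and 246.6 FPKM in the respective libraries.

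Of the 7 members, 6 sit in a pair of tandem groups, and in each group 1 gene was far above the other JAZ genes. On chromosome 3, OsJAZ9, OsJAZ11 and OsJAZ10 lie in that order within 17985 bp, with no other row of the table between them. The middle gene OsJAZ11 exceeded OsJAZ9 by 5.40-fold in replicate 1 and 5.97-fold in replicate 2, and OsJAZ10 by 5.83-fold and 6.76-fold. The OsJAZ11 row spans 1551 bp, against 1341 bp for the RefSeq gene, and what this does to the folds was not tested. On chromosome 10, OsJAZ13, LOC_Os10g25250 and OsJAZ12 lie in that order within 39909 bp, with 4 other rows of the table among them. There the outer gene OsJAZ12 exceeded OsJAZ13 by 292-fold and 214-fold, folds that rest on the low values of OsJAZ13. RefSeq gives the genes of both groups, except LOC_Os10g25250, names of the TIFY11 series, OsTIFY11a to OsTIFY11e. The sources used here do not say how fragments shared by similar copies were assigned.

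**Figure D3:**
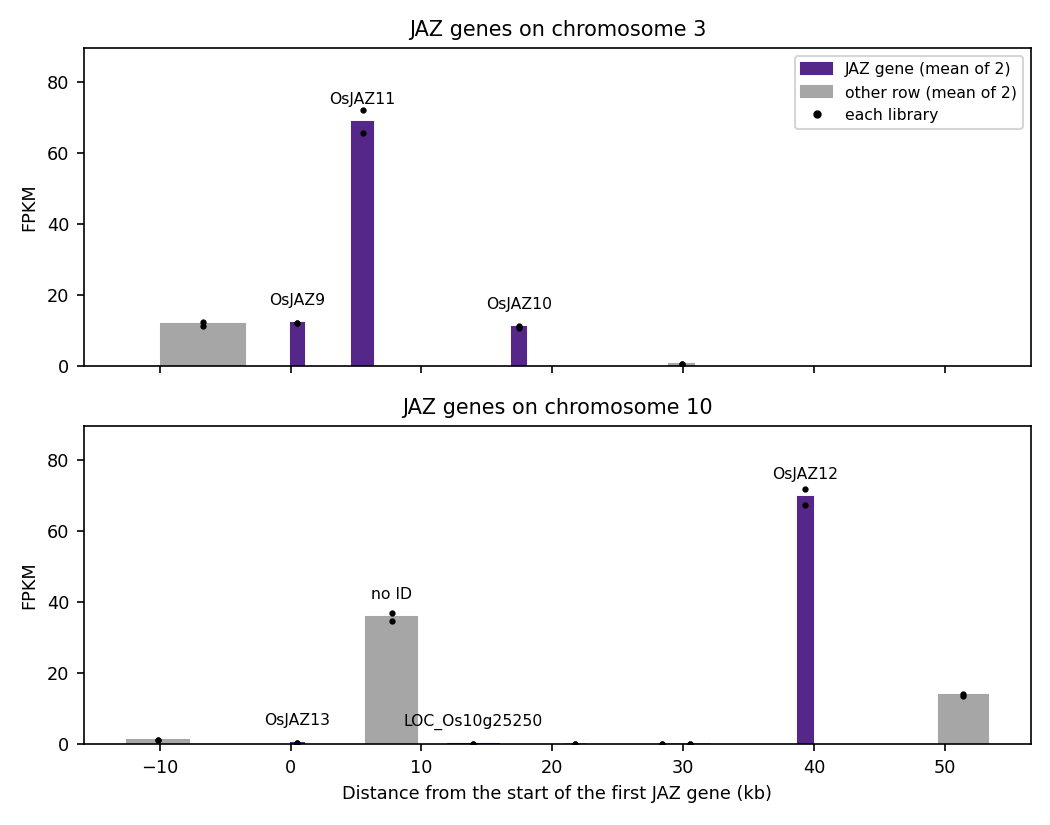
Mean FPKM (bars from 0, with the 2 Nip libraries as points) of the rows in and next to the tandem JAZ groups of chromosomes 3 and 10, drawn at their distance in kb from the start of the first JAZ gene of the group; bar width is the span of the row. OsJAZ11 at 68.7 FPKM and OsJAZ12 at 69.5 FPKM stand above the other JAZ genes of their groups, and a row without a locus ID at 35.8 FPKM lies between OsJAZ13 and LOC_Os10g25250.

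JAZ genes outside the group extended the range upward. Of 7 further JAZ genes with a paired symbol, 6 were at 1 FPKM or more in both libraries and 5 at 10 FPKM or more. Of rows with a single chromosomal locus ID, 37.0% and 20.2% reached these levels. Both JAZ counts include OsJAZ4, which shares its row with another locus. OsJAZ7 (OsTIFY10b) gave 286 and 282 FPKM in replicates 1 and 2, above EG2/OsJAZ1 by 3.63-fold and 3.34-fold. Its row spans 3826 bp, against 2261 bp for the RefSeq gene, and what the difference does to its level was not tested. The other OsTIFY10 genes were lower, OsJAZ6 (OsTIFY10a) at 64.0 and 60.3 FPKM and OsJAZ8 (OsTIFY10c), known from resistance to bacterial blight, at 54.6 and 51.0 FPKM. OsJAZ3 was at 30.4 and 29.9 FPKM, OsJAZ5 at 5.94 and 6.38 FPKM, and OsJAZ2 at 0.501 and 0.304 FPKM. The shared row of OsJAZ4 was at 98.3 and 91.6 FPKM.

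The members held the smaller part of the JAZ signal measured in this way. Over the 13 JAZ rows with a single ID, OsJAZ7 held 42.0% and 41.7% of the summed FPKM in the respective libraries, and the 7 members together held 35.2% and 36.5%. EG2/OsJAZ1 ranked 3 among 14 JAZ rows by mean, after OsJAZ7 and the shared row of OsJAZ4. A further listed JAZ ID outside the group had no paired symbol and is in neither the shares nor the ranks. OsJAZ13 and LOC_Os10g25250 ranked 13 and 14, with OsJAZ2 just above them.

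Between the 2 libraries, the members differed within the range of other rows of their level. Of the 8 members with a mean of at least 1 FPKM, 2 were higher in replicate 2 (EG2/OsJAZ1 and OsJAZ11) and 6 in replicate 1. Among the 20448 rows with a single ID and such a mean, 9817 were higher in replicate 2 and 10630 in replicate 1. Of the members in the range of 10 to 100 FPKM, OsJAZ11 differed most, by 0.13 on the log2(FPKM + 1) scale. In that range, 95% of the 10765 rows differed by less than 0.236. OsOPR7 and OsJAZ9 differed by -0.01 each. OsAOS2 differed by -0.17, in a range of 1 to 10 FPKM where 95% of 10513 rows differed by less than 0.507. With a pseudocount of 0.1 in place of 1 it differed by -0.29, and 95% of the same rows by less than 0.729. Nothing in the labels says whether the libraries came from separate plants, so this spread may be technical.

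**Figure D4:**
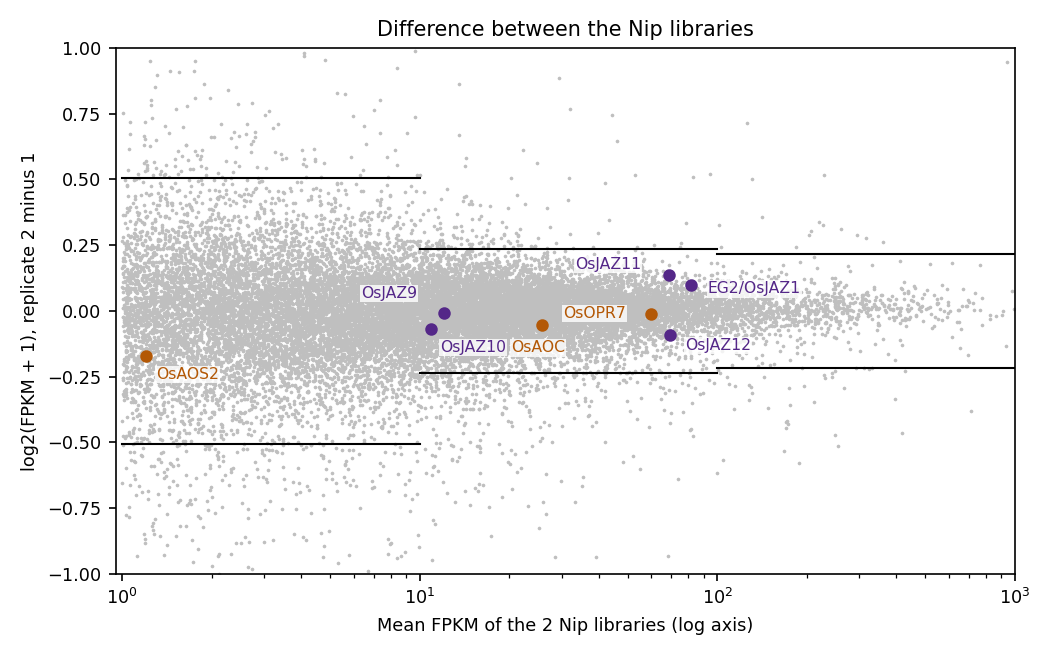
Difference between the Nip libraries (replicate 2 minus replicate 1, log2(FPKM + 1)) against the mean FPKM (log axis), with rows of the table in grey, synthesis genes in brown, JAZ genes in purple and black lines at the 95th percentile of the size of the difference in 3 ranges of level. The 8 members with a mean of at least 1 FPKM lie inside the lines, and 228 grey rows lie outside the axes.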

How the data were processed

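The authors' deposited table holds 1 FPKM value for each gene in each library, per the file headers, with rows that pair 2 libraries. The submitters' processing notes name TopHat. No source used here states the FPKM estimator, the genome build or the annotation. Of 6 library names, those read as control 1 and 2 (the abbreviation ck taken as control) were used as Nip replicates 1 and 2. The other 4 were not used: 1 control name has no matching sample here, and 3 mutant names outnumber the 2 mutant samples in the labels and carry other numbers. The planned limma comparison of osrdr2-3 with Nip was therefore not run. The 10 members and the gene lists were chosen with earlier results of these data known.

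Computed here, with Python 3.11.15, numpy 2.4.6 and pandas 2.3.3, were the mean and SD over the 2 libraries, the difference on the log2(FPKM + 1) scale, ratios within a library, and ranks among rows with a single chromosomal locus ID. No filter was applied to levels; the spread by level used rows averaging at least 1 FPKM. The functions were tested on simulated data. Coordinates are those of the table, whose starts count from 0, raised by 1, on a build that these sources do not name.

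Names rest on prior knowledge of the IDs and on RefSeq synonyms (assembly ASM3414082v1) found on the same chromosome within 5 Mb, with an offset within 250 kb of the nearest listed gene's or a length within 10%. This paired 9 of 10 members and 14 of 20 other pathway IDs; the remaining IDs outside the group are not reported. JAZ numbers follow the series in which EG2 is OsJAZ1, and RefSeq also lists a second numbering in which OsJAZ12 is called OsJAZ1. All 10 members are named, and every other listed gene that could be paired. Alternatives were other minimum levels, a pseudocount of 0.1, median-ratio scaling and each library alone.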

Additional observations from a re-analysis of the deposited data

How the results depend on the processing

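No paired analysis was possible because the libraries used all belong to Nip. The planned comparison of genotypes, its filter and its replicate settings were not run either. The count of members at 1 FPKM or more in both libraries was 8. It was also 8 with a minimum of 0.5 FPKM, with median-ratio scaling and in each library alone, and 7 with a minimum of 5 FPKM. Median-ratio scaling moved no member's level by more than 0.18%, since the median ratio of the libraries was 0.997, so that setting tests little. A single library lies within 1 SD of a mean of 2 by construction and tests no level. With a pseudocount of 0.1 the difference of OsAOS2 between the libraries was -0.29 in place of -0.17 on the log2 scale, where 75.9% of rows of its level differed by less. Depth is unknown, which limits OsJAZ13 and LOC_Os10g25250 most.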

Other observations

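The chromosome 10 group of JAZ genes holds an expressed row that carries no locus ID. The row (chromosome 10, 13036752 to 13040651) gave 34.6 and 36.9 FPKM in replicates 1 and 2, averaging 35.8 ± 1.60 FPKM (SD, n = 2), and was chosen after its value was seen. It lies between OsJAZ13, at 0.245 and 0.314 FPKM, and LOC_Os10g25250, listed at 0, so it exceeded both neighbours in each library. In the RefSeq gene table the gene next to OsJAZ13 on the side of OsJAZ12 is a long noncoding RNA of 3922 bp, close to the 3900 bp of the row, and after it comes an unnamed protein-coding gene of 4077 bp, the same length as LOC_Os10g25250. Whether the row is that noncoding RNA was not tested, since the builds differ or are not given.

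The 3 rows between LOC_Os10g25250 and OsJAZ12 were also listed at 0 in both libraries, so 4 rows in a run were at 0 before OsJAZ12 at 69.5 FPKM. On chromosome 3 the rows that flank the group were LOC_Os03g08300 at 11.3 and 12.3 FPKM, near the level of OsJAZ9 and on a span it shares with another row, and LOC_Os03g08350 at 0.532 and 0.592 FPKM.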
